A study of Mus musculus with 17 samples.

Results

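Negative regulators of inflammatory signalling were examined as a group of 9 genes, taken by symbol from the 21683 rows of the expression table: Tnfaip3, Tnip1, Tnip3, Cyld, Otulin, Socs1, Socs3, Cish and Irak3. RNA-Seq had been performed on mouse peritoneal macrophages (PMs) to ask how HIV protein Tat changes macrophage gene expression and how far the kinase IKKβ, which activates NF-κB, is needed for it. The 17 libraries fell into 3 groups, F/F PBS (IKKβF/FLDLR-/- PMs given PBS, n = 6), F/F Tat (the same genotype with 100 nM Tat, n = 6) and ΔMye Tat (IKKβΔMyeLDLR-/- PMs with 100 nM Tat, n = 5). The mice were C57BL/6 and 8 weeks old and received 1 mL of 3% thioglycollate intraperitoneally, 3 days before collection in the sample labels and 4 days before in the methods. Treatment lasted 12 h and began once the cells had attached for 4 h.

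All groups lacked the LDL receptor and carried loxP-flanked IKKβ alleles, so the control cells were not wild type. The ΔMye mice also carried 1 copy of LysM-Cre, a recombinase knocked into the myeloid lysozyme gene Lyz2. PMs of ΔMye mice given PBS were not analysed here, so a difference between genotypes that was there before Tat and a difference in the response to Tat cannot be told apart. The study treats the libraries as replicates from mice, and whether PBS and Tat cultures shared mice is not given in the sources used here.

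Inflammatory signals switch on their own brakes. A20 (Tnfaip3) edits ubiquitin chains on which the NF-κB pathway is assembled, and ABIN-1 (Tnip1) and ABIN-3 (Tnip3) are proteins that bind A20. The deubiquitinases CYLD and OTULIN (Cyld, Otulin) take such chains apart. SOCS1, SOCS3 and CIS (Socs1, Socs3, Cish) are induced by STAT factors and block cytokine receptors and their JAK kinases, and IRAK-M (Irak3), a kinase relative found mainly in monocytes and macrophages, restrains signalling from Toll-like and IL-1 receptors.

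The starts of these genes were read for the motifs of the transcription factors named above, since NF-κB is the factor that IKKβ activates and STAT factors are known to induce the SOCS genes. The RefSeq promoters (GRCm38.p6, 250 bases before to 50 bases after each start site) matched all 9 genes, with 2 starts each for Tnfaip3 and Irak3 and 11 windows in all. Both strands were searched for the 10-base NF-κB consensus and for the STAT palindrome TTCNNNGAA. The NF-κB consensus occurred in 4 of the 9 genes, Tnfaip3, Tnip1, Tnip3 and Cyld, and in 8.46% of 32851 promoter windows in the mouse genome. The palindrome occurred in 3, Tnip1, Socs3 and Cish, and in 8.3% of all windows. The regulators are counted here by gene and the genome by window, so these shares do not have the same base. No match to either was found in the windows of Otulin, Socs1 and Irak3. The stretches that hold a match are printed 5′ to 3′ on the strand of the gene, with the matches in capitals. They lie at chr10:19015411-19015550 (minus strand) for Tnfaip3, chr11:54962972-54963154 (minus) for Tnip1, chr6:65590329-65590368 (plus) for Tnip3, chr8:88696858-88696897 (plus) for Cyld, chr11:117969497-117969535 (minus) for Socs3 and chr9:107296649-107296678 (plus) for Cish.
Tnfaip3: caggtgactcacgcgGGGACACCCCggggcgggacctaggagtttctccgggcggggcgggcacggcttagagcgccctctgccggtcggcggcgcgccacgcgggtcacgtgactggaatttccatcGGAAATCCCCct
Tnip1: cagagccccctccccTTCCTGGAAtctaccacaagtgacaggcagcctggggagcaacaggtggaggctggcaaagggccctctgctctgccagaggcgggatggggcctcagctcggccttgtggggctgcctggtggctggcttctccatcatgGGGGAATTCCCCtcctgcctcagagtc
Tnip3: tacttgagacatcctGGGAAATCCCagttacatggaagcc
Cyld: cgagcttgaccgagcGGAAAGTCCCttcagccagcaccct
Socs3: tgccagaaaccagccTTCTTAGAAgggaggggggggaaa
Cish: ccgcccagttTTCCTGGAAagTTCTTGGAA
In Tnfaip3 the NF-κB matches lay at bases -125 to -116 and -12 to -3 from the upstream start. In Tnip1, 3 matches overlapped each other between -58 and -47, and the STAT palindrome lay apart from them at -199 to -191. The match of Tnip3 lay at -54 to -45 and that of Cyld at -155 to -146. Socs3 had its STAT palindrome at -154 to -146, and Cish had a pair at 1 to 9 and 12 to 20, just past the RefSeq start. The matches of Tnfaip3, Tnip3, Socs3 and Cish also lay within the bounds of these genes in GENCODE M21, where the genes begin further upstream. A match is a string of letters in this window and was not tested as a binding site.

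**Figure D1:**
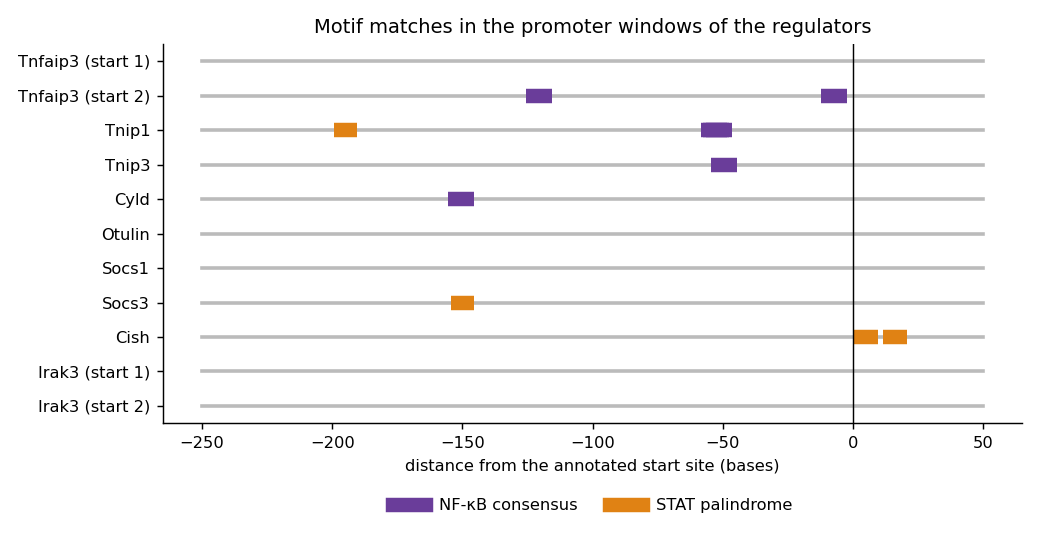
Position of motif matches in the promoter windows of the 9 regulators, in bases from the annotated start site (0); grey lines are the windows, purple blocks the NF-κB consensus and orange blocks the STAT palindrome. NF-κB matches were found at Tnfaip3, Tnip1, Tnip3 and Cyld, and palindromes at Tnip1, Socs3 and Cish.

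Levels are in TPM, which correct a transcript's abundance for its length and for the total of its library. They keep no read number, and the depth is unknown. The libraries held 9260 to 10378 genes at 1 TPM or more, with fewer in both Tat groups (F/F Tat 9260 to 9405, ΔMye Tat 9449 to 9698) than in F/F PBS (10228 to 10378). The median of the 10451 genes tested moved by -0.65 on the log2 scale from F/F PBS to F/F Tat and by 0.22 from F/F Tat to ΔMye Tat. Differences are therefore also given after median-ratio scaling, in which a library is divided by the median of its genes' ratios to their geometric means, and which brought these medians to -0.03 and 0.01. All 6 macrophage markers were present in each group, with a summed level of 3702 to 4072 TPM in F/F PBS, 3121 to 3326 TPM with Tat in F/F PMs and 3548 to 3711 TPM in ΔMye Tat. Single markers moved in different directions. In the same order of groups, Csf1r averaged 381, 64.0 and 104 TPM and Itgam 178, 106 and 116 TPM. Cd68, the largest part of the sum, averaged 2596, 1744 and 1886 TPM, and Cd14 203, 842 and 1009 TPM. Adgre1 averaged 499, 441 and 512 TPM, and Mertk 15.4, 20.1 and 24.3 TPM. Ikbkb, the deleted gene, averaged 23.2 TPM in F/F Tat against 16.4 TPM in ΔMye Tat, a log2 difference of -0.51 (adjusted p = 4.51e-05, limma), with 70.7% of the F/F Tat mean still counted. The deletion removes part of the gene, which makes this a weak check of the labels. Lyz2, which carries the Cre, differed by -0.69 (adjusted p = 1.32e-13, limma).

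In F/F PMs, Tat raised 7 of the 9 regulators and lowered Otulin, and Cyld did not pass the test. The 3 SOCS family genes of the group rose most, with mean levels 26.9-fold (Cish), 12.8-fold (Socs3) and 9.55-fold (Socs1) those of F/F PBS, followed by Tnfaip3 at 8.14-fold. At the threshold of an adjusted p under 0.01 (limma), 17% of all genes tested were higher and 67.6% lower, so the group went mostly against the general direction. With the study's added threshold of a fold change over 3, 5 regulators were called higher, where 5.21% of all genes were. The median log2 difference was 1.88 over the 9 regulators and -0.65 over all genes, or 2.51 and -0.03 after scaling, where 8 regulators passed higher (37.1% of all genes) and Otulin lower (38.1%). The 12 libraries of the comparison did not overlap between groups for 7 regulators that were higher, against 15.3% of all genes, and for 1 that was lower, against 62.4%. In bulk RNA, more of a transcript per cell and more cells that carry it cannot be told apart.

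**Figure D2:**
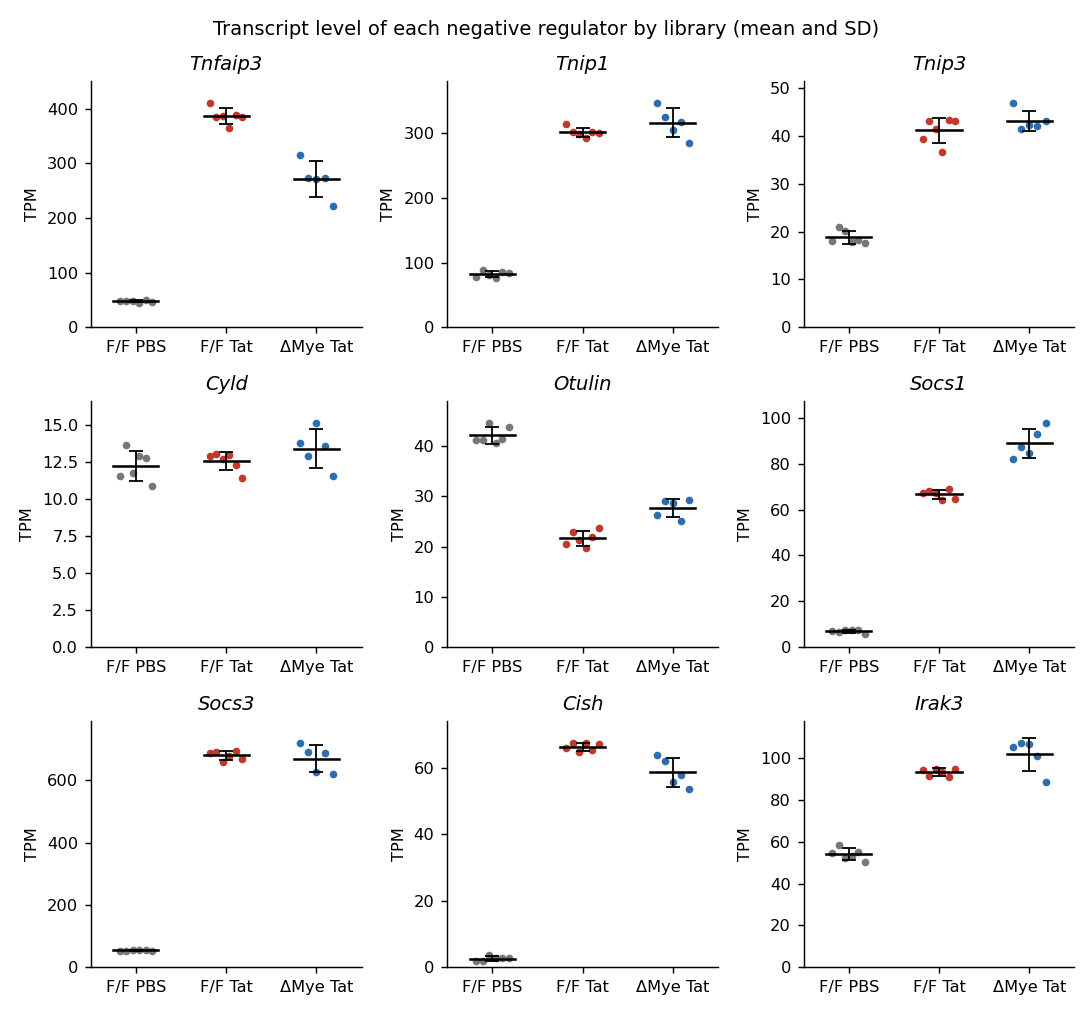
Level of each regulator (TPM, vertical axes from 0) in the 6 F/F PBS, 6 F/F Tat and 5 ΔMye Tat libraries; points are libraries, long bars means and short bars SD. Socs3 reached 659 to 695 TPM in F/F Tat from 51.3 to 55.8 in F/F PBS, and Tnfaip3 in ΔMye Tat lay between its levels in the other groups.

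Tnfaip3, on chromosome 10 (19000910 to 19015657, GRCm38, minus strand), encodes A20, the ubiquitin-editing enzyme at the centre of this feedback. Its level was 44.4 TPM in the lowest F/F PBS library, 47.8 at the median and 50.6 in the highest, and the corresponding levels in F/F Tat were 365, 386 and 410 TPM. In order, ΔMye Tat libraries 19 to 23 held 315, 273, 271, 274 and 223 TPM. Thus each ΔMye Tat library was below each F/F Tat library and above each F/F PBS library. The rise with Tat in F/F PMs was 3.02 on the log2 scale (SE 0.06, adjusted p = 5.43e-20, limma) and 3.65 after scaling. In ΔMye Tat the level fell by 0.52 against F/F Tat (SE 0.06, 95% interval -0.64 to -0.39, adjusted p = 5.90e-07, limma), to 70.1% of the F/F Tat mean, and by 0.73 after scaling (adjusted p = 4.98e-11). Of the 9 regulators, Tnfaip3 was the one that passed lower in the TPM as deposited, a direction that 8.87% of all genes took.

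Tnip1 (chromosome 11, 54910785 to 54962917, minus strand) encodes ABIN-1, which brings A20 to ubiquitin chains. It was the most abundant of the 9 transcripts in F/F PBS, at 76.2, 82.6 and 87.9 TPM (lowest, median, highest), and reached 293, 300.5 and 314 TPM in F/F Tat. The 5 ΔMye Tat libraries, in the same order, held 346, 325, 306, 318 and 286 TPM. So both Tat groups lay above F/F PBS and overlapped each other. With Tat the log2 difference was 1.88 (SE 0.04, adjusted p = 8.94e-19, limma). Between the Tat groups it was 0.07 (95% interval -0.03 to 0.16, adjusted p = 0.209, limma). Scaling turned it to -0.15 (adjusted p = 4.28e-04), so its direction there depended on the scale.

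Tnip3 (chromosome 6, 65525313 to 65634040, plus strand) encodes ABIN-3, a related A20-binding protein. Its level was 17.6, 18.2 and 20.9 TPM in F/F PBS and 36.7, 42.3 and 43.3 TPM in F/F Tat, a log2 difference of 1.12 (SE 0.05, adjusted p = 1.22e-13, limma). In ΔMye Tat the libraries held 46.8, 41.4, 42.2, 42.0 and 43.1 TPM, within or just above the F/F Tat range. The difference between the Tat groups was 0.07 (95% interval -0.05 to 0.18, adjusted p = 0.300, limma), or -0.14 after scaling (adjusted p = 0.0306).

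Because a ratio within a library does not depend on scaling, A20 was also set against its partners. Tnfaip3 stood at 0.546 to 0.610 of the Tnip1 level in F/F PBS, 1.25 to 1.31 in F/F Tat, and 0.780 to 0.911 in the ΔMye Tat libraries. The 3 ranges did not overlap, and only in F/F Tat did Tnfaip3 exceed Tnip1. The ratio of Tnfaip3 to Tnip3 had the same order, at 2.30 to 2.76, 8.92 to 10.4 and 5.17 to 6.73. The ratio of Tnip1 to Tnip3 was 4.03 to 4.78 in F/F PBS, 6.96 to 7.99 in F/F Tat and 6.63 to 7.86 with IKKβ deleted. It was thus higher in both Tat groups than in F/F PBS, but its ranges in the Tat groups overlapped.

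**Figure D3:**
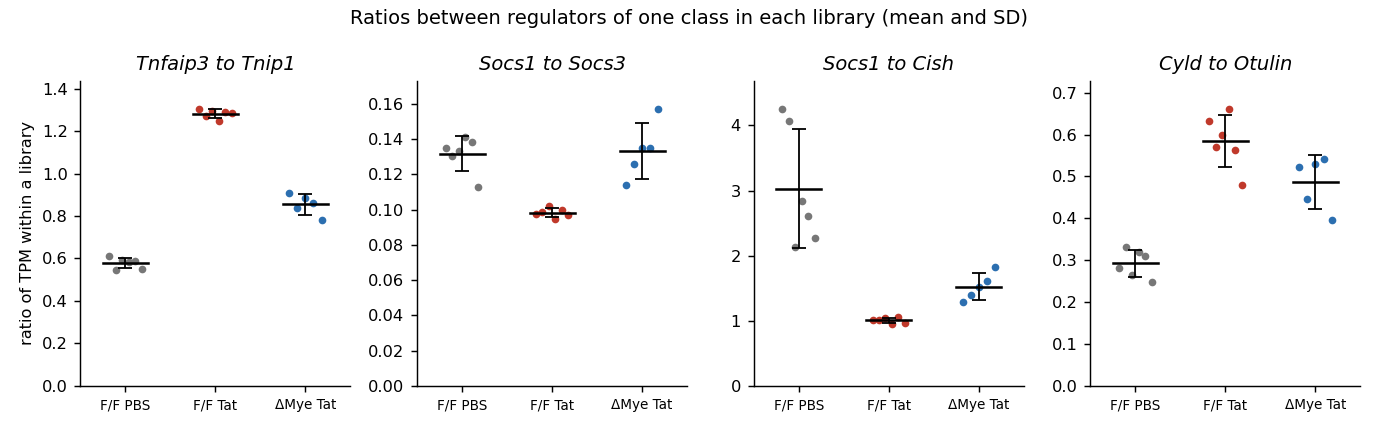
Ratio of the TPM of 2 regulators within each library, for 4 pairs (vertical axes from 0), in F/F PBS, F/F Tat and ΔMye Tat; points are libraries, long bars means and short bars SD. Tnfaip3 exceeded Tnip1 in the F/F Tat libraries (1.25 to 1.31) and stayed below it in the others.

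Otulin (chromosome 15, 27542635 to 27630693, minus strand) encodes the deubiquitinase that removes linear ubiquitin chains, and went the other way from most of the group. Its level was 40.5, 41.3 and 44.5 TPM in F/F PBS and 19.7, 21.5 and 23.8 TPM in F/F Tat. The ΔMye Tat libraries, at 26.3, 29.1, 28.6, 25.2 and 29.2 TPM, lay between these groups without overlap. With Tat it fell by 0.96 in F/F PMs (SE 0.05, adjusted p = 1.04e-12, limma) and by 0.33 after scaling (adjusted p = 5.95e-05). Against F/F Tat it was higher in ΔMye Tat by 0.35 (SE 0.05, adjusted p = 1.92e-05, limma), but by 0.14 after scaling (adjusted p = 0.0720).

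Cyld (chromosome 8, 88697028 to 88751945, plus strand) encodes a deubiquitinase that cuts linear and lysine-63-linked chains. It was at 10.9, 12.3 and 13.7 TPM in F/F PBS, 11.4, 12.8 and 13.1 TPM in F/F Tat, and the 5 ΔMye Tat libraries held 13.8, 13.0, 15.1, 13.6 and 11.5 TPM. The 3 groups overlapped. The log2 difference with Tat was 0.04 (95% interval -0.10 to 0.18, adjusted p = 0.584, limma), against a fall of 0.65 in the median gene, and after scaling Cyld was higher by 0.67 (adjusted p = 5.14e-09). Its share relative to Otulin in the same library rose from 0.249 to 0.331 in F/F PBS to 0.481 to 0.662 in F/F Tat, and was 0.395 to 0.542 in ΔMye Tat.

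Socs3 (chromosome 11, 117966079 to 117970047, minus strand) encodes the inhibitor of IL-6 family receptor signalling, and was the most abundant of the 9 transcripts in both Tat groups. Its level was 51.3, 52.9 and 55.8 TPM in F/F PBS and 659, 684 and 695 TPM in F/F Tat. With IKKβ deleted, the libraries held 720.2, 692, 627, 688 and 622 TPM, on both sides of the F/F Tat values. The rise with Tat was 3.68 on the log2 scale (SE 0.03, adjusted p = 1.44e-24, limma). The difference between the Tat groups was -0.02 (95% interval -0.10 to 0.05, adjusted p = 0.578, limma), which leaves the ΔMye Tat mean at 98.5% of F/F Tat, while after scaling Socs3 was lower by 0.24 (95% interval -0.31 to -0.16, adjusted p = 1.81e-05).

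Socs1 (chromosome 16, 10782240 to 10785536, minus strand) encodes a direct inhibitor of JAK kinases that limits interferon responses. It rose from 5.78, 7.24 and 7.52 TPM in F/F PBS to 64.1, 67.2 and 69.1 TPM in F/F Tat, a log2 difference of 3.24 (SE 0.06, adjusted p = 3.23e-20, limma). The ΔMye Tat libraries held 81.9, 87.1, 84.7, 92.8 and 97.7 TPM, each above the highest F/F Tat library. The ΔMye Tat mean was 133% of F/F Tat, a log2 difference of 0.41 (SE 0.06, 95% interval 0.28 to 0.54, adjusted p = 1.66e-05, limma), but the adjusted p was 0.0283 after scaling, with a difference of 0.20. A higher level was the direction of 38.8% of all genes in this comparison. Against Socs3 in the same library, Socs1 stood at 0.113 to 0.141 in F/F PBS, 0.0944 to 0.102 in F/F Tat, against 0.114 to 0.157 in ΔMye Tat, so the Tat groups did not overlap on this scale-free measure. T cells also express Socs1, and the 5 T cell markers summed to 3.21 to 7.85 TPM in F/F PBS, 1.82 to 2.95 in F/F Tat and 6.78 to 9.17 with IKKβ deleted, with none of the 5 at 0 throughout a group. Their part in the Socs1 difference was not tested.

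Cish (chromosome 9, 107296026 to 107302784, plus strand) encodes CIS, which is induced by STAT5 and binds cytokine receptors. It was the least abundant of the 9 in F/F PBS, at 1.64, 2.60 and 3.48 TPM, and reached 64.9, 66.7 and 67.6 TPM in F/F Tat. Its rise of 4.74 on the log2 scale (SE 0.13, adjusted p = 2.96e-17, limma) was the 65th highest of all genes. In ΔMye Tat it was at 64.0, 62.3, 55.9, 57.9 and 53.6 TPM, in each library under the lowest F/F Tat library, and the mean was 88.4% of F/F Tat. The log2 difference of -0.18 did not pass (SE 0.14, 95% interval -0.47 to 0.11, adjusted p = 0.268, limma), although the exact permutation test gave 0.00216, the smallest p these groups allow. After scaling the difference was -0.39 (95% interval -0.68 to -0.10, adjusted p = 0.0255, limma), which did not pass either. The limma spread was shared with the F/F PBS libraries, where Cish varied by 28.8% of its mean (SD) against 1.74% in F/F Tat, and a fit of the Tat groups alone gave an adjusted p of 0.00392 (0.00392 to 0.367 over the alternatives with the full set of libraries). Socs1 stood at 0.948 to 1.06 of Cish in F/F Tat and at 1.28 to 1.82 in ΔMye Tat. Of the exonic bases of Cish, 7.46% overlap the antisense gene Gm17041 and 4.07% overlap Gm17040, and whether strand was used in quantification is not given in the sources used here.

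Irak3 (chromosome 10, 120141648 to 120202130, minus strand), the Toll-like and IL-1 receptor inhibitor, rose least of the regulators that passed higher. Its level was 50.1, 53.9 and 58.5 TPM in F/F PBS and 91.1, 94.0 and 95.1 TPM in F/F Tat, a log2 difference of 0.79 (SE 0.04, adjusted p = 1.91e-12, limma). Under Tat, the ΔMye libraries held 105, 107, 107, 101 and 88.8 TPM, with 4 above and 1 below the F/F Tat range. The difference between the Tat groups was 0.12 (95% interval 0.02 to 0.22, adjusted p = 0.0336, limma), or -0.09 after scaling (adjusted p = 0.0544). Without ΔMye Tat library 23 it was 0.17 and passed (adjusted p = 9.23e-04, limma), and over the alternatives with the full set of libraries the adjusted p ranged from 0.00309 to 0.472. The opposite-strand gene Tmbim4 overlaps 5.22% of the exonic bases of Irak3.

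In all, 6 of the 9 regulators had no difference that passed between ΔMye Tat and F/F Tat. In ΔMye Tat 2 were higher (Otulin and Socs1, against 38.8% of all genes) and 1 lower (Tnfaip3, against 8.87%). The median difference was 0.07 over the 9 and 0.22 over all genes. After scaling, 3 were lower (Tnfaip3, Tnip1 and Socs3, where 18.8% of all genes were) and the median was -0.14 against 0.01. In the TPM as deposited the largest difference in either direction was 1.43-fold (Tnfaip3), under the fold change of 3 that 0.44% of genes exceeded upward and 0.316% downward. Between the Tat groups, Otulin and Socs1 were higher without overlap (28.6% of all genes were), and Tnfaip3 and Cish lower without overlap (8.01%).

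**Figure D4:**
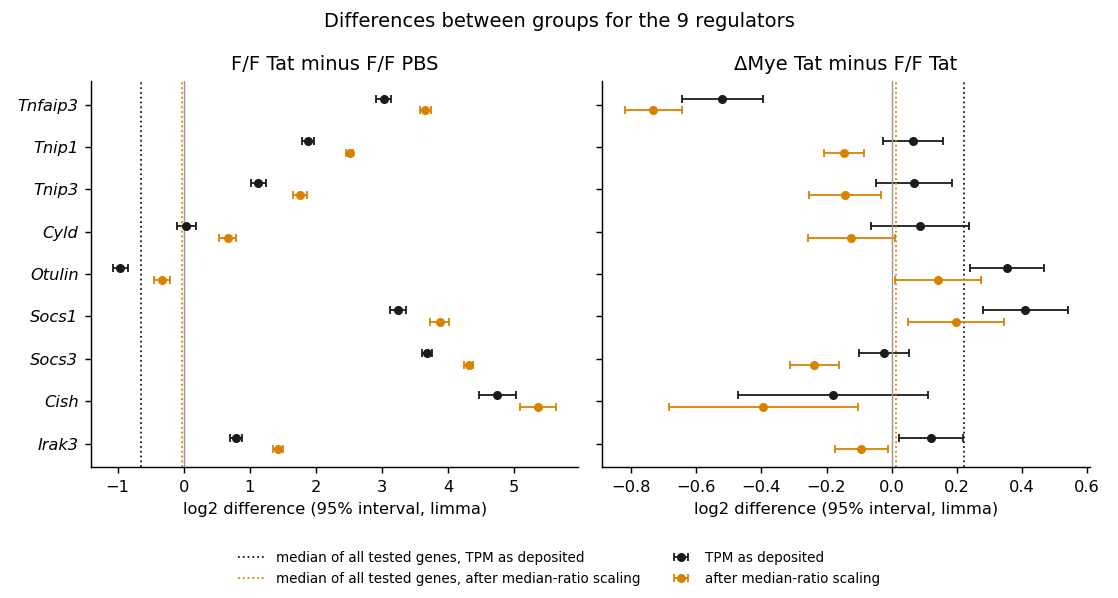
Log2 differences of the 9 regulators for F/F Tat minus F/F PBS (left) and ΔMye Tat minus F/F Tat (right, a narrower axis), from the TPM as deposited (black) and after median-ratio scaling (orange); bars are 95% intervals from limma and dotted lines the medians of all genes tested. Tnfaip3 lay lowest on the right at -0.52 and -0.73, while the intervals of Tnip1, Tnip3, Cyld, Socs3 and Cish on the deposited scale include 0.

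Set against F/F PBS, with which both Tat groups share the control libraries, ΔMye Tat had 7 regulators higher and Otulin lower (17.5% and 58.8% of all genes), each without overlap (14.8% and 52.8%), and 5 were called higher with a fold change over 3 (4.38%). The log2 differences were 4.56 for Cish, 3.66 for Socs3, 3.65 for Socs1, 2.50 for Tnfaip3, 1.94 for Tnip1, 1.19 for Tnip3 and 0.91 for Irak3. Otulin was at -0.60, or -0.19 after scaling (adjusted p = 0.0128, limma), where 8 regulators passed higher (34% of all genes) and none lower (33.7%, with Otulin alone lower at an unadjusted p under 0.05). Cyld was at 0.13 (adjusted p = 0.105, limma).

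The order of the levels changed with Tat. In F/F PBS it ran Tnip1, Irak3, Socs3, Tnfaip3, Otulin, Tnip3, Cyld, Socs1 and Cish, with overlapping ranges for Irak3 and Socs3 and for Tnfaip3 and Otulin. In F/F Tat it ran Socs3, Tnfaip3, Tnip1, Irak3, Socs1, Cish, Tnip3, Otulin and Cyld, with overlap of Socs1 and Cish. In ΔMye Tat, Tnip1 stood before Tnfaip3 (ranges overlapping) and Irak3 overlapped Socs1. In terms of all genes tested, Socs3 was above 79.6% of them in F/F PBS and above 97.9% in F/F Tat, and Cish went from above 11.7% to above 85.1%.

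The 5 ΔMye Tat libraries were not alike. Library 19 had the highest Ikbkb level (19.9 TPM) and library 23 the lowest (12.8 TPM). Tnfaip3 was also highest in library 19, at 81.5% of its F/F Tat mean, and lowest in library 23, at 57.6%. In the TPM as deposited it ordered all 5 libraries as Ikbkb did, and so did the median-ratio factor of the libraries (1.01 in library 19 to 0.895 in library 23). After scaling, Ikbkb kept its order while Tnfaip3 ran 19, 21, 20, 22 and 23 from highest to lowest. As deposited, library 23 was also the lowest for Tnip1, Cyld, Socs3, Cish and Irak3 and the highest for Socs1 (146%) and Otulin (135%), whereas library 19 was the highest for Tnip1, Tnip3, Socs3 and Cish and the lowest for Socs1 (123%). After scaling, library 23 remained the lowest for Tnip1, Cyld and Irak3 and the highest for Socs1 and Otulin. These are the values of 5 libraries, with no test.

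**Figure D5:**
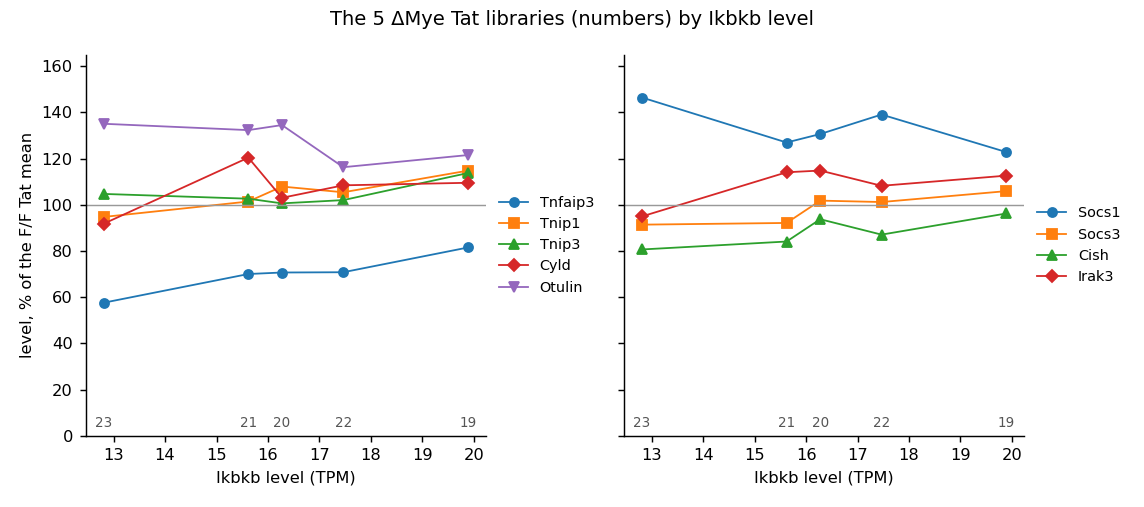
Level of each regulator in the 5 ΔMye Tat libraries, as a percentage of its F/F Tat mean (vertical axis; line at 100%), against the Ikbkb level in TPM of the same library; grey numbers name the libraries and lines join values of one gene. Tnfaip3 lay between 57.6% and 81.5% and Socs1 between 123% and 146%.

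Partners and substrates of the ubiquitin editors were mixed. Of 10 partners of A20, CYLD and OTULIN, 4 were higher and 5 lower with Tat in F/F PMs (limma), and after scaling 7 were higher and the other 3 also above 0, so the direction of this list depended on the scale. Rnf31, the catalytic subunit of the linear ubiquitin ligase LUBAC, rose by 1.29, while its LUBAC partners Rbck1 (-0.40) and Sharpin (-0.57) were lower as deposited and at 0.23 and 0.06 after scaling. In ΔMye Tat, Rnf31 fell by 0.40 against F/F Tat (adjusted p = 3.74e-05, limma), one of 2 partners that were lower, with 3 higher. After scaling 3 were lower, and none was higher at the adjusted p or at an unadjusted p under 0.05 (limma). Of 10 signalling proteins on which these enzymes act, 6 were higher and 2 lower with Tat (8 and 1 after scaling). Ripk2, the kinase of NOD receptors, rose by 1.80 and Traf2 by 0.88, whereas Map3k7, which encodes TAK1, fell by 0.81. In ΔMye Tat 2 of the 10 were higher and 1 lower (1 and 5 after scaling), with Map3k7 at 0.49 and Ripk2 at -0.26.

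The cytokines that are known to act upstream of the SOCS genes rose with Tat, and most fell in ΔMye Tat. Of the 6 on the list 5 were tested, and these 5 were higher with Tat in F/F PMs, with log2 differences from 3.25 (Osm) to 8.47 (Il6). Against F/F Tat, 4 of the 5 were lower in ΔMye Tat, namely Il10 by 2.59, Il6 by 1.45, Csf2 by 1.11 and Osm by 0.84. The difference of Ifng was 0.62 (adjusted p = 0.0733, limma). Il6 went from 3393 TPM on average in F/F Tat to 1244 TPM in ΔMye Tat, and Socs3 from 680.1 to 669.7 TPM. In F/F PBS Il6 averaged 9.55 TPM, and all 5 cytokines were still higher in ΔMye Tat than in F/F PBS (limma). After scaling Socs3 was lower in ΔMye Tat than in F/F Tat by 0.24 (adjusted p = 1.81e-05, limma). Of 17 receptors, JAK kinases and STAT factors tested, 8 were higher and 4 lower with Tat (14 and 3 after scaling), led by Jak2 (2.30), Stat5a (1.99) and Stat3 (1.60) and, downward, by the receptors Il6ra (-3.62), Ifngr1 (-1.92) and Il6st (-1.37). Between the Tat groups 7 were higher and 1 lower (4 and 7 after scaling). The one lower as deposited was Stat3 (-0.59, adjusted p = 9.01e-08, limma), and Il6ra (1.21), Ifngr1 (0.76) and Il6st (0.48) were highest.

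Other brakes did not move as a block. Of 14 other inhibitors of JAK-STAT signalling, 3 were higher and 6 lower with Tat (9 and 2 after scaling). Usp18, which restrains the type I interferon receptor, rose by 2.79 and Ptpn2, a phosphatase of JAK kinases and STATs, by 1.12, while Pias3 fell by 1.38 and Socs5 by 1.07. In ΔMye Tat, Usp18 fell by 1.26 against F/F Tat, the one of the 14 that was lower as deposited. The 4 that were higher were led by Ptpn6 (0.62), which encodes the phosphatase SHP-1. After scaling 1 was higher and 3 were lower. In the IRAK complex around Irak3, 3 of 5 genes were higher with Tat, Myd88 (0.99), Irak2 (0.81) and Tirap (0.42), and the kinases Irak1 (-1.53) and Irak4 (-1.27) were lower. Between the Tat groups Irak1 (0.76) and Irak4 (0.39) were higher and the other 3 did not pass, while after scaling 1 was higher and 2 were lower. Of 5 other inhibitors of Toll-like and IL-1 receptor signalling tested, 1 was higher and 1 lower in each comparison (limma). Il1rn, the IL-1 receptor antagonist, rose by 5.04 and fell in ΔMye Tat by 1.08. Rnf216 was lower with Tat (-0.63) and Tollip higher in ΔMye Tat (0.20), and after scaling neither of these passed (-0.0012 and -0.015).

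Among all genes tested, those whose log2 TPM followed each regulator most closely over the 17 libraries were listed by Pearson's r, as a description. The libraries form 3 groups, which alone can give a high r. For Tnfaip3 the closest was Zyx (r = 0.999), followed by Atp10a. Tnip1 was followed by Slc7a2 (0.999), Jak2 and Tnfrsf1b, and Tnip3 by Cd38 (0.992), Slc7a2 and Tnfsf15. For Socs3 the closest were Cfb (0.9997), Ccl5 and Acod1, for Socs1 Acp5 (0.999), Il12b and Cd38, and for Cish Plaat3 (0.997), Junb and Ccl5. Irak3 was followed by Jag1 (0.993), Slc7a11 and Malt1. Otulin was followed by Mrps15 (0.994), Idh3b and Me2. For Cyld, which varied little, r was lower, at 0.864 for Ecpas, ahead of Nktr and Zfp429. The first gene stayed among the first 3 after scaling for Tnfaip3, Otulin, Socs1 and Cish and left them for the other 5.

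Markers of other cells were low in these PMs. The 4 B cell markers summed to 12.1 to 25.4 TPM in F/F PBS, 10.9 to 14.5 in F/F Tat and 8.20 to 12.6 with IKKβ deleted, the 2 NK cell markers to at most 2.19 TPM and the 4 neutrophil markers to at most 1.81 TPM, with Elane at 0 in each library. The 6 mast cell and eosinophil markers summed to 25.4 to 34.6, 22.3 to 30.4 and 16.3 to 23.4 TPM in the same order, and the 4 mesothelial markers to 2.61 to 4.29, 1.81 to 3.35 and 0.897 to 1.70 TPM. The part of these cells in the differences of the regulators was not tested.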

How the data were processed

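RNA-Seq libraries of 17 PM cultures were grouped by the sample labels. The deposited TPM, listed by gene symbol, were made by the authors with Salmon and the GRCm38 gene models of Ensembl, and no normalization of these TPM between libraries is stated (TMM normalization is given for the counts of their edgeR comparison). The listed genes summed to 889318 to 903576 TPM per library. TPM hold no counts, so depth and counting error are unknown, the spread between libraries is the measure of precision, and the authors' edgeR comparison was not repeated.

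Genes at 1 TPM or more in at least 5 libraries (10451, all 9 regulators among them) entered a limma 3.58.1 fit (R 4.3.3) of log2(TPM + 0.1) with a trended prior, 14 residual degrees of freedom over the 3 groups and Benjamini-Hochberg adjustment over all genes. Genes passed at an adjusted p under 0.01 and were called with a fold change over 3 as well. Fold changes on this scale understate those of low genes, such as Cish in F/F PBS. Exact two-sided permutation tests of single genes stood beside limma. The fit was tested on simulated data in which genes were only raised and the median gene did not shift, unlike in these data. That test therefore does not bear on the choice of scale. The regulators, the 7 pathway lists and the markers were chosen with earlier results of these data known. Named were the 9 regulators, Ikbkb, Lyz2, at most the 3 highest and 3 lowest genes of each list that passed, Rbck1 and the ΔMye difference of Ifng (both added after their values were seen), and the 3 genes most like each regulator, of which one is not reported here. The macrophage markers were also named after their values were seen. Positions are from GENCODE M21 and promoters from RefSeq. Protein sequences were not used here. Alternatives were other pseudocounts and filters, median-ratio scaling, quantile normalization, a fit of the groups compared, robust weights and each library left out. Other steps used scipy 1.17.1, pandas 2.3.3 and numpy 2.4.6 in Python 3.11.15, with figures by matplotlib 3.10.9.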

Additional observations from a re-analysis of the deposited data

How the results depend on the processing

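No paired analysis was made, since whether PBS and Tat cultures shared mice is not given and the running replicate numbers do not show it. In both comparisons with F/F PBS the number of regulators that passed higher stayed at 7 or 8 over the alternatives without the fold threshold. With a fold change over 3 the number lower was 0 against F/F PBS for F/F Tat and for ΔMye Tat, and 0 higher and 0 lower between the Tat groups, where 3 were higher and 1 lower at an unadjusted p under 0.05 (limma). Median-ratio scaling left 0 lower for ΔMye Tat against F/F PBS (1 at an unadjusted p under 0.05). Between the Tat groups it gave 0 higher (2 at an unadjusted p under 0.05) and 3 lower, quantile normalization gave 1 higher, robust weights gave 3 higher, and a fit of only these groups gave 2 lower.

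With each library left out, 2 to 3 regulators were higher between the Tat groups, the third being Irak3 without ΔMye Tat library 23 (as with robust weights), and the other counts were those of all libraries. Tnfaip3 stayed lower, at -0.73 to -0.50 with the full set of libraries. Directions between the Tat groups turned under scaling for Tnip1 (-0.15), Tnip3 (-0.14), Cyld (-0.12) and Irak3 (-0.093). Quantile normalization turned Tnip3 (-0.060), Cyld (-0.12) and Socs3 (0.0017), and leaving out ΔMye Tat library 23 turned Socs3 (0.0020, in a range of -0.051 to 0.0020). The cause of these changes was not tested.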
